A study of Mus musculus with 137 samples.

Results

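Crypt tissue of the mouse duodenum was compared between animals that drank water with 180 ppm hexavalent chromium, Cr(VI), given as sodium dichromate dihydrate, and animals that drank water with 0 ppm. All were female wildtype B6C3F1 mice, a hybrid strain, that drank freely for 7 days and were sampled on study day 8. The comparison was defined by the labels alone, as the crypt compartment, the highest concentration and the shorter exposure, and it holds 10 of the 71 crypt libraries of the series, beside which stand 66 villus libraries, and these are 5 exposed crypts (mice 526, 527, 528, 529 and 530) and 5 control crypts (mice 46, 47, 48, 49 and 50). The series covered crypt and villus at 7 concentrations of Cr(VI) after 7 or 90 days, in 28 groups. Each library was made from a fixed, paraffin-embedded section from which the other compartment had been removed before the remaining tissue was scraped off the slide, so that a crypt library holds every cell type left in the scraped area, including the connective tissue, vessels and immune cells around the glands. RNA was read with TempO-Seq, in which pairs of detector oligonucleotides are ligated where they lie side by side on a transcript and are then sequenced, so that a count is a number of reads of 1 probe. Groups further used for comparison were the villus at 180 ppm (4 mice) and 0 ppm (5 mice) after 7 days, the crypt at 60 and 20 ppm after 7 days (5 mice each), and the crypt at 180 and 0 ppm after 90 days (5 mice each), all of the same strain and sex.

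The lining of the small intestine is renewed from stem cells at the base of the crypts. Their daughters divide in the crypt and mature into absorptive enterocytes, goblet cells and enteroendocrine cells as they move onto the villus, while Paneth cells, which secrete antimicrobial defensins and lysozyme, stay at the crypt base. Mature enterocytes take up sugars, amino acids and fats, package lipid into lipoproteins, and carry enzymes that hydrolyse nutrients or modify foreign compounds, and T cells lie between them within the epithelium.

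The total count was 3443712, 4759008, 3185711, 2943846 and 4300195 in the control crypts of mice 46 to 50, and 3535222, 2341950, 3121487, 3246479 and 3915273 in the exposed crypts of mice 526 to 530. Depth therefore overlapped between the groups, and all 10 libraries lay within the range of 1463938 to 7199801 over the whole series. Of 30146 probes for 21450 genes, 26365 probes for 19020 genes passed the filter on low counts and were tested, and levels are given below as CPM, the reads of a probe relative to the library total after TMM scaling in the usual scale of this unit, always in the order of mice 46 to 50 and 526 to 530. Levels of different genes were not compared with each other, because probes differ in how well they ligate. Each mouse gave 1 crypt library, but the p-values rest on a spread pooled over all libraries of the series. These include villus libraries of the same mice, which entered as independent, so the p-values do not measure the spread between these mice alone. In a fit of these 10 libraries alone, 790 genes passed an adjusted p below 0.1, against 957 in the fit of all libraries.

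One control library went against its label. The 21 markers of the villus enterocyte list summed to 52112, 36400, 41154, 90960 and 36927 CPM in the control crypts, so that mouse 49 stood far above the other control crypts and within the range of the control villi (57968 to 113262 CPM). Markers of the stem cell list were lowest in the same library, at 1234, 1293, 1127, 430 and 743 CPM, and so were those of the Paneth cell list, at 35736, 38110, 18267, 2848 and 10856 CPM. The control villus of mouse 48 moved the other way, with 57968 CPM of villus enterocyte markers, 1110 CPM of stem cell markers and 23184 CPM of Paneth cell markers. The library labelled control crypt of mouse 49 was kept, as labelled, in the comparison, and counts of called genes in the comparison of its group with the exposed crypts are followed by their value without that library where it differed. In the exposed crypts the stem cell markers summed to 807, 982, 1355, 964 and 995 CPM and the Paneth cell markers to 12109, 17234, 20086, 12457 and 19148 CPM, so that the Paneth cell sums stayed within the span of the controls, while the stem cell sum of mouse 528 was above the highest control and the other 4 within it. In the control mice 164 genes differed between crypt and villus (0.726% with 1 probe a gene, 0.221% higher and 0.505% lower in the crypt), 695 without the control crypt of mouse 49 and 1636 without both of these libraries. With the mouse as a block in a fit of these 2 groups, an alternative added after seeing the data, 313 genes differed, 223 without mouse 49 and 725 without mice 48 and 49. The span of the control crypts cannot decide whether the label held for the exposed crypts, because it includes mouse 49. The exposed Paneth cell sums also lay within the range of the control villi (2762 to 23184 CPM). Against the exposed villi, all 5 exposed crypts had higher sums of stem cell markers (villi 358 to 486 CPM). The same held for Paneth cell markers (villi 1302 to 4782 CPM), while villus enterocyte markers were lower (12482 to 23450 against 39096 to 75754 CPM). The defining stem cell gene Lgr5 was near the limit of detection in the exposed crypts, at 5.83, 5.85, 0, 7.63 and 7.34 CPM. Ascl2, another such gene, was at 0 CPM in all 5 exposed libraries.

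**Figure D1:**
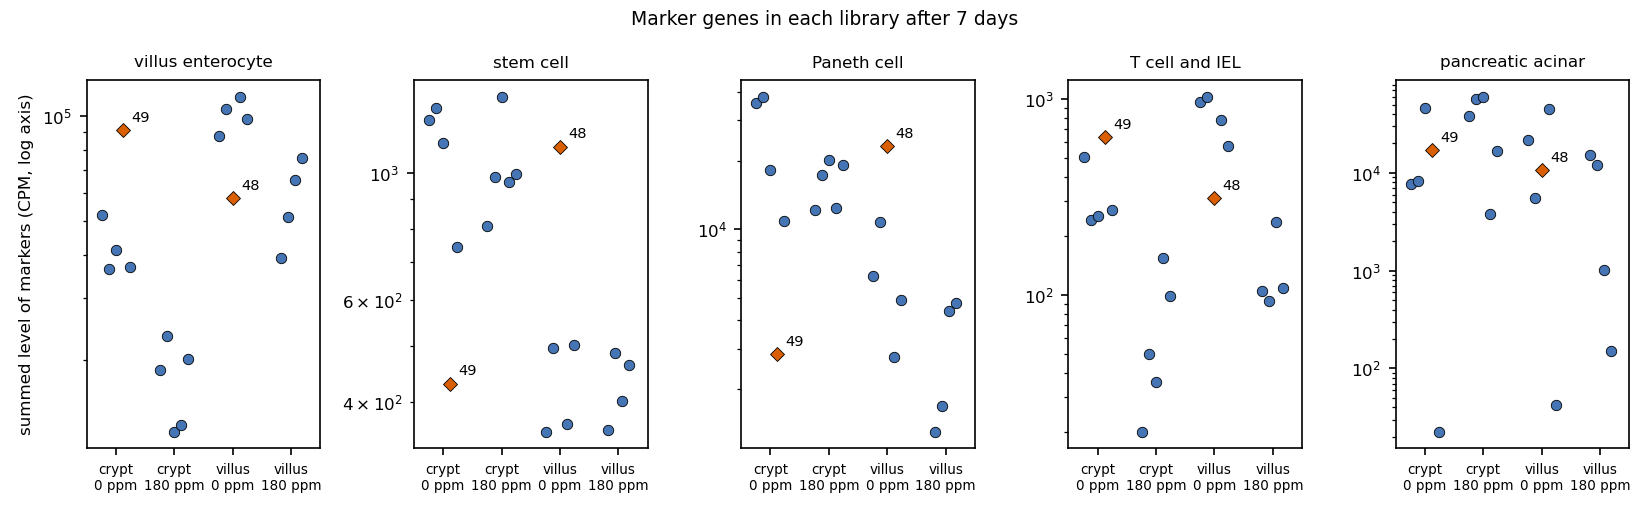
Summed level of the markers of 5 cell types in each library after 7 days (CPM, log axis), for control and exposed crypt and villus; each point is 1 library. Orange diamonds mark the control crypt of mouse 49 (90960 CPM of villus enterocyte markers) and the control villus of mouse 48 (57968 CPM), which stood on the side of the other compartment, and the exposed crypts lay between 12482 and 23450 CPM for villus enterocyte markers, below every control crypt.

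After 7 days at 180 ppm, 957 genes passed an adjusted p below 0.1 in the crypt by at least 1 probe, of which 263 were higher and 694 lower than in the control crypts. These genes came from 1089 of 26365 probes (4.13%), with 278 probes higher (1.05%) and 811 lower (3.08%). Counted with 1 probe a gene, 844 of 18998 genes (4.44%) passed, 220 of them higher (1.16%) and 624 lower (3.28%), and these shares are the background against which the gene lists below are read. Counts of list members are by edgeR unless another tool is named. Without the control crypt of mouse 49, 488 genes passed (110 higher and 378 lower), and 476 of them were among the 957, which is 49.7% of the longer and 97.5% of the shorter list, with 0 genes in opposite directions. Counted with 1 probe a gene, 437 genes (2.3%) passed without that library, 0.485% higher and 1.82% lower. The share of called probes that were higher depended on the scaling, at 25.5% with TMM and 37.5% with the size factors of DESeq2, which moved every log2 fold change by 0.08. The median log2 fold change over all genes tested was -0.03, and all 90 genes that both passed and fell under the rule for named genes kept their direction under every alternative in which they were tested, which was 22 for most of them and 20 or 21 for Ada, Dnajb1 and Slx4. The exposed and control libraries did not overlap for 666 genes (3.51%), 238 of them higher (1.25%) and 428 lower (2.25%).

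The called markers of mature, absorbing enterocytes were all lower in the exposed crypts. Of the 21 villus enterocyte markers, 13 fell and 0 rose, with a median log2 fold change of -1.56, and 12 fell with a median of -1.31 without the control crypt of mouse 49. Their summed level was 18729, 23450, 12482, 12998 and 20093 CPM in the exposed crypts, below every control crypt, and among them was Fabp2, an intracellular fatty acid binding protein, at 22448, 12467, 15528, 32066 and 10817 CPM in the controls and 5454, 10107, 4331, 4761 and 7023 CPM in the exposed crypts. In these bulk sections fewer enterocytes and less of each transcript per enterocyte cannot be told apart, and how much villus base a section carried was not measured apart from these markers.

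Apolipoproteins, which coat the lipid particles that enterocytes release, fell by several fold. Apoa1, the main protein of high-density lipoprotein, was at 6003, 3915, 3789, 13366 and 2950.3 CPM in the controls and 501, 847, 314, 430.0 and 916 CPM in the exposed crypts. The lowest control was above 3 times the highest exposed crypt, and the log2 fold change was -3.32 ± 0.41 (SE), adjusted p = 4.07e-10 (-2.75 without the control crypt of mouse 49). Apoa4, which is made mostly by the intestine, fell by a log2 fold change of -3.57 ± 0.47 (SE), adjusted p = 5.09e-09. Apoc2, the activator of lipoprotein lipase, and Apoc3, its inhibitor, changed by -3.23 and -3.38 on the log2 scale (adjusted p = 2.25e-10 and 1.3e-07), and in both genes the exposed crypts lay below all controls. Apob, the structural protein of chylomicrons, fell by a log2 fold change of -2.31 ± 0.35 (SE), adjusted p = 2.31e-07, and Mttp, the protein that loads lipid onto it, changed by -1.03, a call that was lost without the control crypt of mouse 49 (adjusted p = 0.11). Of 19 genes of lipid absorption and lipoproteins, 12 fell and 0 rose (7 without mouse 49), with a median of -1.03.

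The called carriers and surface enzymes of the brush border, the microvillus face of the enterocyte, were lower too. Slc5a1, the sodium-coupled glucose transporter SGLT1, was at 1973, 1508, 1861, 4242 and 1080.3 CPM in the controls and 761, 591, 288, 256 and 507 CPM in the exposed crypts, without overlap. Its log2 fold change was -2.15 ± 0.27 (SE), adjusted p = 1.48e-09, and -1.69 without the control crypt of mouse 49. Among 26 nutrient transporters 15 fell and 0 rose (8 without that library), with a median of -1.35 (-0.96 without it). The members that fell included the amino acid carriers Slc6a20a (-2.30) and Slc6a19 (-1.77), the peptide carrier Slc15a1 (-2.52), the glucose exporter Slc2a2 (-2.33) and the folate carrier Slc46a1 (-2.77), all log2 fold changes that held without that library. Some of these and of the list members given below lay outside the rule for named genes and were picked as examples after their values were seen. Of 19 brush border enzymes 9 fell and 0 rose (7 without mouse 49), with a median of -1.60. Mgam, the maltase-glucoamylase that digests starch fragments, changed by -1.93 ± 0.26 (SE), adjusted p = 9.35e-09, and Treh, which splits trehalose, by -2.32 ± 0.36 (SE), adjusted p = 5.34e-07. The peptidase Ace (-2.85) fell too, while the alkaline phosphatase Alpi was at 813, 928, 661, 1829 and 703 CPM in the controls and 1024, 357, 338, 349 and 515 CPM in the exposed crypts and missed the threshold (adjusted p = 0.205).

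Pck1, the enzyme that commits carbon to glucose synthesis, showed one of the largest losses. It was at 267, 109, 221, 976 and 349.7 CPM in the controls and 8.11, 0, 0, 2.46 and 3.90 CPM in the exposed crypts, where 2 libraries held no read. The groups did not overlap, and the log2 fold change was -6.68 ± 0.68 (SE), adjusted p = 1.5e-14 (-5.96 without mouse 49). Within a list of 18 genes of gluconeogenesis and glycolysis 6 fell and 0 rose (5 without that library), among them Fbp1 (-2.22), a further enzyme of glucose synthesis, and Khk (-1.40), the kinase of fructose. Of 31 genes of fatty acid oxidation 14 fell and 0 rose (10 without it), with a median of -0.71. The thiolase Acaa1a changed by -1.34 ± 0.22 (SE), adjusted p = 2.4e-06, and the kinase Pdk4, which restrains glucose oxidation, by -3.37 (adjusted p = 0.000618). Of 79 subunits of oxidative phosphorylation 0 rose and Ndufa1 fell by edgeR (-0.45, adjusted p = 0.091), a call lost without mouse 49. At an unadjusted p below 0.05, 0 were higher and 8 lower, and 2 fell by DESeq2. The summed villus enterocyte markers given above fell alongside these metabolic genes, and their part in the metabolic result was not tested.

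The called enzymes of foreign compound metabolism were lower as well. Cyp2b10, a cytochrome P450 known as a target of the receptor CAR, was at 305, 186, 203, 571 and 213 CPM in the controls and 5.83, 0, 0, 0.246 and 3.44 CPM in the exposed crypts, that is, nearly undetected after exposure. Its log2 fold change was -6.79 ± 0.78 (SE), adjusted p = 2.51e-12, and the probe may not separate it fully from other Cyp2b genes. Of 65 cytochromes P450 of families 1 to 4, 17 fell and 0 rose (13 without mouse 49), with a median of -0.79 (-0.75 without it). In the control mice this list averaged 4381 CPM in the villi and 2245 CPM in the crypts (5 libraries each, medians 4563 and 1720 CPM). These libraries include the villus of mouse 48 and the crypt of mouse 49. The summed villus enterocyte markers fell in the same exposed crypts, and their part in the result for foreign compound enzymes was not tested. Members of the list that fell included Cyp3a13 at -2.65, Cyp3a25 at -3.50 and Cyp3a11 at -4.97, although near-identical Cyp3a and Cyp2c genes may share reads. Cyp1a1, the textbook target of the dioxin receptor, changed by -3.14 (adjusted p = 0.00134). Of 50 conjugating enzymes and carboxylesterases, 12 fell and 0 rose (9 without mouse 49), among them the carboxylesterases Ces2b (-1.91) and Ces2c (-2.06), the glucuronosyltransferase Ugt1a1 (-1.66) and the sulfotransferase Sult1b1 (-1.73), of which the first 3 belong to families of near-identical genes. Ephx2, the soluble epoxide hydrolase, was at 1042, 883, 884, 2186 and 671 CPM in the controls and 190.5, 179.7, 118, 95.5 and 152 CPM in the exposed crypts (log2 fold change -2.94 ± 0.34 (SE), adjusted p = 1.76e-11).

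Of 33 nuclear receptors 6 fell and 0 rose (3 without mouse 49). The receptor of vitamin D, Vdr, changed by -1.40 ± 0.29 (SE), adjusted p = 0.000346, and Ppard, a fatty acid receptor, by -0.81 (adjusted p = 0.00761). The loss of the pregnane receptor gene Nr1i2 (-0.82) and of the bile acid receptor gene Nr1h4 (-0.94) passed only with mouse 49 included. Of 24 transcription factors of the epithelium, Maf (-1.26) and Creb3l3 (-0.93) fell with that library and neither passed without it (adjusted p = 0.104 and 0.312). Also among the 10 lowest by adjusted p were Iyd, which removes iodine from iodotyrosine, at 105, 63.7, 59.4, 167 and 101 CPM in the controls and 13.9, 6.63, 4.74, 3.45 and 3.67 CPM in the exposed crypts, and Tymp, the thymidine phosphorylase, with a log2 fold change of -3.54 ± 0.42 (SE), adjusted p = 9.28e-11.

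**Figure D2:**
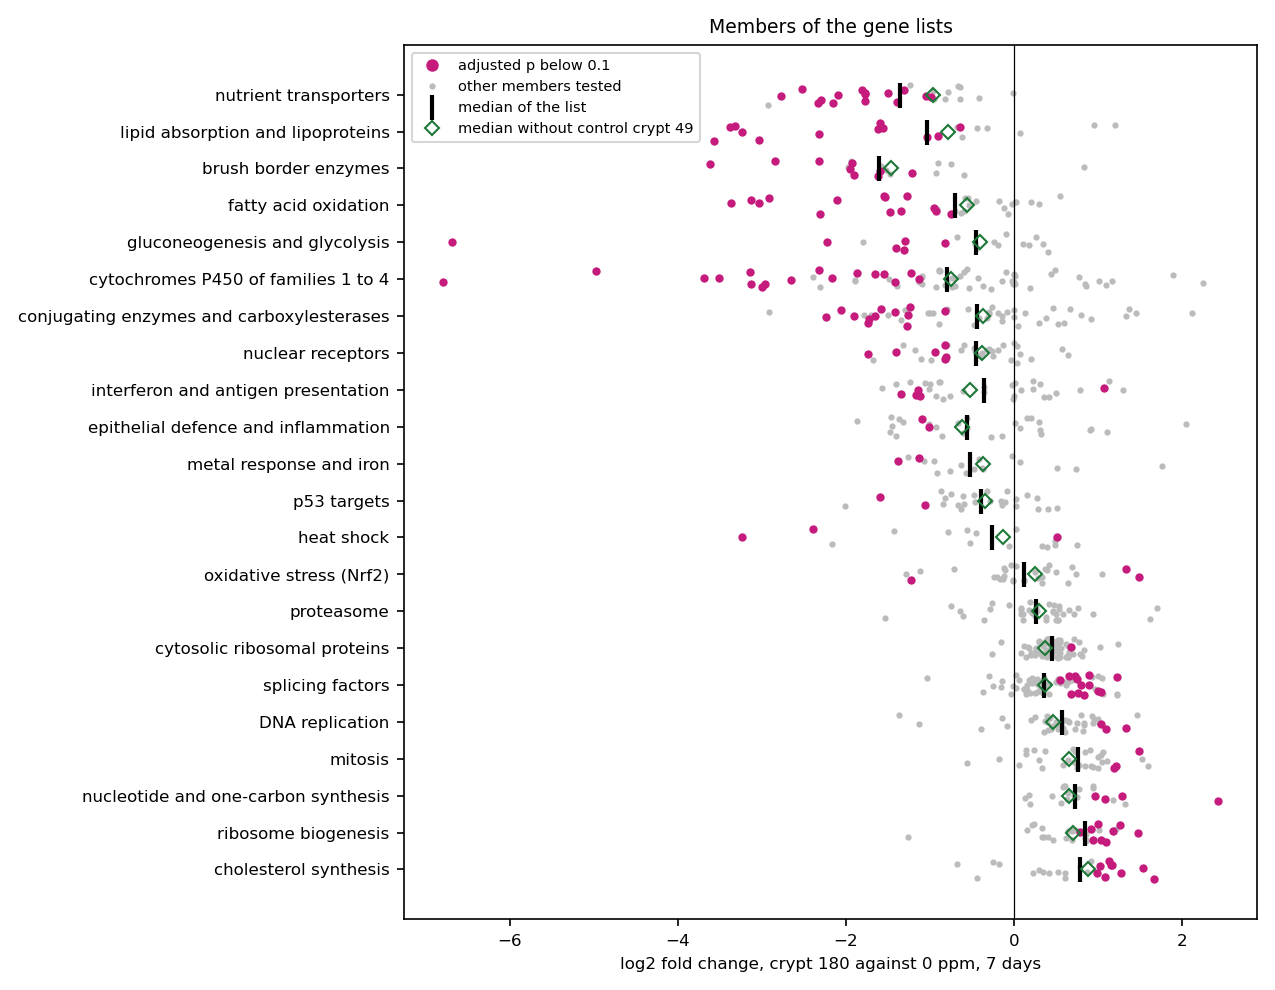
Log2 fold change of each tested member of 22 gene lists in the crypt at 180 against 0 ppm after 7 days (horizontal axis), 1 probe a gene; magenta points passed an adjusted p below 0.1, bars are list medians and green diamonds the medians without the control crypt of mouse 49. The called members of the 7 uppermost lists, from nutrient transporters to conjugating enzymes, all lie left of 0 and those of the 7 lowermost lists, from cytosolic ribosomal proteins to cholesterol synthesis, all lie right of it.

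The called transcripts of lymphocytes that sit in the epithelium were lower in the exposed crypts. Gzma, a serine protease of the granules of cytotoxic T cells, was at 361, 131, 139, 384 and 80.3 CPM in the controls and 4.31, 11.7, 22.7, 10.8 and 15.8 CPM in the exposed crypts. The groups were separate in this gene, and the log2 fold change was -4.02 ± 0.44 (SE), adjusted p = 2.07e-12 (-3.68 without mouse 49). Of 12 markers of the T cell and intraepithelial lymphocyte list 6 fell and 0 rose (4 without that library), with a median of -1.58 (-1.28 without it), and their summed level was 506, 239, 254, 635 and 271 CPM in the controls and 20, 50, 36, 154 and 98 CPM in the exposed crypts. In the control mice this list averaged 732 CPM in the villi and 381 CPM in the crypts (5 libraries each, medians 777 and 271 CPM). These libraries include the villus of mouse 48 and the crypt of mouse 49. The summed villus enterocyte markers fell in the same exposed crypts, and their part in the lymphocyte result was not tested. The list was uneven, as its further members, picked as examples after their values were seen, show. Itgae, the integrin that holds lymphocytes in the epithelium, changed by -2.36 (adjusted p = 4.12e-06), and Gzmb, a second granule protease, was at 19.5, 11.1, 16.6, 31.6 and 8.35 CPM in the controls and 0, 0, 0, 5.17 and 0.917 CPM in the exposed crypts. The T cell receptor component Cd3e, by contrast, was at 5.69, 11.1, 8.93, 7.98 and 12.3 CPM in the controls and 0.253, 0, 0, 16.0 and 9.86 CPM in the exposed crypts, where mice 529 and 530 were not below the controls (adjusted p = 0.636), and Cd4 and Cd8b1 were at 0 in 3 and 4 of the control libraries.

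Btnl2, a butyrophilin-like gene of the intestinal epithelium, was at 416, 233, 226, 615 and 235 CPM in the controls and 74.0, 57.7, 29.4, 40.1 and 81.2 CPM in the exposed crypts, and it was among the genes with the smallest adjusted p (log2 fold change -2.59 ± 0.25 (SE), adjusted p = 1.5e-14). Sectm1b, a small secreted and membrane protein gene, went from 1037, 523, 511, 1653 and 478 CPM to 0, 20.3, 0, 2.71 and 9.17 CPM, and only a trace was left after exposure. The class I antigen presentation genes H2-Q2, one of a family of near-identical genes, and H2-K1 changed by -2.80 and -1.17 (adjusted p = 1.74e-11 and 5.22e-06). Of 33 genes of the interferon and antigen presentation list 4 fell and 1 rose (2 and 1 without mouse 49). Irf1, a transcription factor of the interferon response, fell by a log2 fold change of -1.34 ± 0.23 (SE), adjusted p = 1.13e-05, and Oas1a, an antiviral enzyme, was the member that rose (1.07, adjusted p = 0.0757). Of 29 genes of epithelial defence and inflammation Nfkbia (-1.10) and Pigr (-1.01) fell, and without mouse 49 0 passed by edgeR and 5 had an unadjusted p below 0.05 (adjusted p = 0.135 and 0.219).

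Of 9 B and plasma cell markers 2 fell with and without mouse 49, and these were Igha (-1.46) and Jchain (-1.35), which encode the heavy chain and the joining chain of secreted IgA. When each library was left out in turn, 2 members of this list fell each time and 0 to 2 rose. Of 8 goblet cell markers Clca1 (-1.53) and Fcgbp (-0.86) fell and Spink4 (1.07) rose (Fcgbp not called without mouse 49, adjusted p = 0.121), while Muc2, the main mucin, was at 59.9, 88.4, 68.0, 107 and 103 CPM in the controls and 121, 77.6, 100.1, 58.8 and 98.2 CPM in the exposed crypts. Of 14 enteroendocrine markers the hormone genes Sst (-1.25), Gip (-1.26) and Sct (-1.61) fell, and without mouse 49 0 passed by edgeR and 4 had an unadjusted p below 0.05. Of 19 stem cell markers 0 passed by edgeR, with 3 at an unadjusted p below 0.05 and 2 passing by DESeq2, and of 12 Paneth cell markers 0 passed by either tool, with 0 at an unadjusted p below 0.05. The medians of these lists were -0.12 and -0.33, and -0.24 and -0.56 without mouse 49. With and without that library, 8 of 19 stem cell and 1 of 12 Paneth cell markers were positive. Lyz1, the lysozyme of Paneth cells, was at 3625, 4389, 2255, 335 and 1453 CPM in the controls and 1925, 2422, 2643, 1736 and 2722 CPM in the exposed crypts. The exposed values sat inside the wide spread of the controls, whose lowest value came from mouse 49. Among 8 macrophage and monocyte markers Csf1r, a growth factor receptor, fell (-1.10, adjusted p = 0.0869, not called without mouse 49), and among 6 neutrophil markers Ly6g (lower, adjusted p = 0.00627). The 8 smooth muscle markers, of which 0 passed by either tool and 2 had an unadjusted p below 0.05, summed to 2393, 2513, 3134, 933 and 2161 CPM in the controls and 1066, 1367, 1638, 1463 and 2182 CPM in the exposed crypts.

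Mcpt1 and Mcpt2 were higher in the exposed crypts, and neither belongs to one of the gene lists. Mcpt1, a protease of mucosal mast cells, was at 12.3, 15.6, 46.5, 18.0 and 26.8 CPM in the controls and 331, 207, 218, 102 and 139 CPM in the exposed crypts. Every exposed library was above every control, with a log2 fold change of 3.04 ± 0.59 (SE), adjusted p = 9.54e-05 (3.01 without mouse 49). The related Mcpt2 rose by a log2 fold change of 3.53 ± 0.77 (SE), adjusted p = 0.00025, and reads of the 2 genes, which are similar in sequence, may not be fully separated.

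Among the genes that rose, those of cholesterol synthesis formed the list with the highest share of called members and kept most of them without the control crypt of mouse 49. Of 23 genes 9 rose and 0 fell (6 without that library), against 1.16% of all genes, with a median of 0.78 (0.88 without it). Acat2, which joins acetyl units at the start of the pathway, was at 21.3, 26.5, 26.5, 28.3 and 25.2 CPM in the controls and 72.2, 55.8, 72.6, 40.1 and 44.0 CPM in the exposed crypts. The groups did not overlap, and the log2 fold change was 1.14 ± 0.27 (SE), adjusted p = 0.00287 (1.21 without mouse 49). The later enzymes that rose were Mvk (1.27), Idi1 (1.03) and Fdps (1.08), which make and extend isoprene units, Fdft1 (1.15), Sqle (1.54) and Lss (1.67), which form squalene and close it into lanosterol, and Msmo1 (0.99), which trims the sterol. Without mouse 49, Mvk, Idi1 and Fdps missed the threshold.

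Mboat1, an acyltransferase of membrane phospholipids, had one of the clearest gains. It was at 0, 3.03, 1.23, 0 and 5.12 CPM in the controls and 65.9, 17.9, 74.2, 31.0 and 27.1 CPM in the exposed crypts, that is, close to undetected without Cr(VI). The log2 fold change was 3.98 ± 0.67 (SE), adjusted p = 5.7e-07 (3.82 without mouse 49). S100a14, a calcium-binding protein of epithelia, was at 4.79, 4.45, 8.93, 0 and 2.85 CPM in the controls and 86.6, 19.1, 30.9, 26.1 and 42.9 CPM in the exposed crypts (log2 fold change 3.17 ± 0.55 (SE), adjusted p = 2.84e-06), and Bcl2l15, a relative of the apoptosis regulator Bcl2, at 58.1, 25.5, 17.9, 13.6 and 17.6 and 174, 352, 222, 126 and 159.6 CPM (log2 fold change 2.94 ± 0.60 (SE), adjusted p = 3e-04). Rcc1, which charges the nuclear transport factor Ran, rose by a log2 fold change of 1.48 ± 0.28 (SE), adjusted p = 0.000101. Cldn2, a pore-forming tight junction protein, was the member that rose by edgeR among 22 junction genes, of which 2 rose and 1 fell by DESeq2 (1.74 for Cldn2, adjusted p = 0.00645), and Krt7, a keratin, the member that rose among 19 genes of injured epithelium (1.57, adjusted p = 0.00681). Both held without mouse 49.

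Lists of growth and division had small positive medians with and without mouse 49, while fewer of their members were called without that library. Of 34 genes of ribosome biogenesis 9 rose and 0 fell, with a median log2 fold change of 0.85 and 18 higher at an unadjusted p below 0.05. Without that library 1, Polr1d, a subunit of RNA polymerases, rose, with a median of 0.70 and 14 higher at an unadjusted p below 0.05. With it, 12 rose with the size factors of DESeq2 in edgeR and 10 by DESeq2. Of 66 splicing factors 13 rose and 0 fell (3 without it), with a median of 0.35 (0.37 without it) and 23 higher at an unadjusted p below 0.05 (22 without it), led by Hnrnpab, an RNA-binding protein (0.89, adjusted p = 0.00217). Of 41 translation initiation factors Eif5a (0.89) and Eif4a1 (0.82) rose by edgeR with and without it and Eif2b3 (1.24) with it. In this list 10 were higher at an unadjusted p below 0.05, 5 rose with the size factors of DESeq2 in edgeR and 9 by DESeq2. Of 22 genes of nucleotide and one-carbon synthesis 4 rose and 0 fell (2 without it). Gart, which builds the purine ring, changed by 2.43 ± 0.63 (SE), adjusted p = 0.00374, and the mitochondrial serine enzyme Shmt2 by 1.28 (adjusted p = 0.0216). Of 79 cytosolic ribosomal proteins Rpl4 rose (0.68, adjusted p = 0.0928) and 0 fell, with a median of 0.45, with 8 higher with the size factors of DESeq2 in edgeR and 17 higher by DESeq2. Without mouse 49 0 of them passed by edgeR, with 7 higher at an unadjusted p below 0.05. Of 39 proteasome genes 0 passed by edgeR, with 9 higher and 2 lower at an unadjusted p below 0.05 and a median of 0.27, and by DESeq2 8 rose and 1 fell.

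Of 34 mitosis genes 3 rose and 0 fell, and of 43 DNA replication genes 3 rose and 0 fell, with medians of 0.76 and 0.57. Without the control crypt of mouse 49 0 genes of either list passed by edgeR, with 9 mitosis genes and 5 replication genes higher and 1 replication gene lower at an unadjusted p below 0.05, and medians of 0.66 and 0.46. In a fit of the crypt libraries of 7 days alone 14 mitosis genes rose, and over the other settings 0 to 9. The summed villus enterocyte markers were lower in the same exposed crypts (17550 ± 4719 against 51510.4 ± 22940 CPM, mean ± SD, n = 5 each). In the control mice, the medians of the crypt against the villus were 0.89 for mitosis, 0.68 for replication, 0.71 for ribosome biogenesis and 0.71 for cytosolic ribosomal proteins, of the same sign as the medians after exposure. The part of a smaller share of villus tissue in these lists was not tested. Plk1, a kinase that drives entry into and progress through mitosis, was at 68.6, 64.3, 42.8, 8.64 and 42.9 CPM in the controls and 106, 103, 189, 101 and 149 CPM in the exposed crypts. All exposed libraries were above all controls, with a log2 fold change of 1.49 ± 0.40 (SE), adjusted p = 0.016, but the call was lost without mouse 49, whose 8.64 CPM was the lowest of the controls (log2 fold change 1.28, adjusted p = 0.11). The other members that rose were the spindle proteins Prc1 (1.21) and Kif11 (1.19), and for replication Mcm10 (1.33), Rrm1 (1.09) and Rpa1 (1.04). Pcna, the sliding clamp of the replication fork, was at 56.0, 139, 121, 85.8 and 180.5 CPM in the controls and 131, 92.8, 153, 144 and 152 CPM in the exposed crypts (adjusted p = 0.755).

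The proximal promoter of Plk1 is shown because the gene stands for the mitosis list, many of whose promoters carry the CCAAT box. In RefSeq (GRCm38.p6) its 250 bases before the start lie at chr7:122159185-122159434 on the plus strand, and the capitals mark the CCAAT match.
Plk1: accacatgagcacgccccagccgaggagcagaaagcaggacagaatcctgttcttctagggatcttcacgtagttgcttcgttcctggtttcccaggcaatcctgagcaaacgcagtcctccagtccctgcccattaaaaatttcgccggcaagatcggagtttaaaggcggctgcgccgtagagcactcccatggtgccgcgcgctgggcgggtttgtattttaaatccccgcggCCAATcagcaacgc
CCAAT, searched on both strands in windows of 300 bases around the start, was found in 23 of 28 mitosis promoters (82.1%) and in 38% of all 27025 promoters, and in those of all 3 mitosis genes that rose. In the replication list the letters TTTNNCGC, like those bound by E2F factors, were found in 13 of 34 promoters (38.2%) against 5.29% of all promoters, and in 0 of the 3 that rose. These matches describe the sequences only.

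Each list of stress responses had at most 3 called members in the crypt at this time. Of 31 genes of the oxidative stress (Nrf2) list 2 rose and 1 fell, with a median of 0.12 and 17 members positive (0.245 and 24 without mouse 49). Gclc, the rate-limiting enzyme of glutathione synthesis, was at 20.7, 11.7, 8.31, 9.31 and 9.30 CPM in the controls and 44.6, 29.2, 30.0, 19.4 and 29.1 CPM in the exposed crypts, so that 1 control, mouse 46, reached into the exposed range (log2 fold change 1.33 ± 0.33 (SE), adjusted p = 0.00476). Gsta3, a glutathione transferase, was at 31.1, 18.4, 12.3, 9.31 and 19.5 CPM in the controls and 46.1, 37.4, 86.5, 41.4 and 50.0 CPM in the exposed crypts, without overlap (log2 fold change 1.49 ± 0.40 (SE), adjusted p = 0.014). Both rises held without mouse 49 (adjusted p = 0.0188 and 0.067), whereas the fall of Ephx1, the microsomal epoxide hydrolase, did not (adjusted p = 0.219). The Gsta3 promoter is printed because it holds the core letters of the antioxidant response element, TGACNNNGC, in capitals, within 250 bases before the start at chr1:21240335-21240584 on the plus strand (GRCm38.p6, RefSeq).
Gsta3: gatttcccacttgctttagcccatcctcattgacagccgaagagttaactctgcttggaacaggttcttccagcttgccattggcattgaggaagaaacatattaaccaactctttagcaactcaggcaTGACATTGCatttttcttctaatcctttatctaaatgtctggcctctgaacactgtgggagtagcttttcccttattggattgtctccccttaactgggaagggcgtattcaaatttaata
These letters, on either strand of the 300-base windows, were found in 8 of 26 promoters of the list (30.8%) and in 12.4% of all promoters.

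The list of metal response and iron summed to 7067, 4911, 4257, 7474 and 3531 CPM in the controls and 3607, 2808, 2621, 2330 and 2501 CPM in the exposed crypts, with a median log2 fold change of -0.53 and overlap only between the lowest control and the highest exposed crypt. Of its 18 genes 0 rose and 2 fell, with 1 higher and 7 lower at an unadjusted p below 0.05, and those that fell were Fth1, the ferritin heavy chain that stores iron (-1.38, adjusted p = 0.00212), and Heph, the ferroxidase of iron export (-1.13, adjusted p = 0.0125), the latter a call lost without mouse 49. The core letters of the metal response element, TGCNCNC, were found in 9 of 13 promoters of this list (69.2%) and 50.4% of all promoters. Of 24 hypoxia genes 0 rose and 2 fell by edgeR (1 higher and 5 lower at an unadjusted p below 0.05, and 1 higher and 2 lower by DESeq2), the glycolytic regulator Pfkfb4 (-1.74 ± 0.28 (SE), adjusted p = 9.69e-07) and the angiogenic factor Vegfa (-1.42, adjusted p = 0.0212, and 0.103 without mouse 49). Of 26 p53 targets 0 rose and 2 fell by edgeR (1 higher and 6 lower at an unadjusted p below 0.05, and 1 higher and 2 lower by DESeq2), with a median of -0.39, and the same 2 passed without mouse 49. One of them was Pmaip1, a trigger of apoptosis, at 105, 96.3, 73.6, 168 and 64.5 CPM in the controls and 14.7, 36.7, 24.9, 38.9 and 49.3 CPM in the exposed crypts (-1.59 ± 0.39 (SE), adjusted p = 0.0039). Of 31 genes of the Fanconi anemia and homologous recombination list 2 rose and 1, Slx4, a scaffold of nucleases, fell (-2.70, adjusted p = 0.0551), and without mouse 49 0 rose. The fall of Slx4 missed the threshold in 11 of 20 alternatives, and its log2 fold changes over all 20 ran from -3.83 to -0.74. Of 22 apoptosis genes 2 fell, Pmaip1 among them, and 0 rose (1 fell without mouse 49). Of 20 immediate early genes Dusp1, a phosphatase of growth signalling, fell (-2.08 ± 0.69 (SE), adjusted p = 0.0478).

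Protein folding genes were called in both directions. Herpud1, a component of the degradation pathway of the endoplasmic reticulum, fell by a log2 fold change of -1.65 ± 0.29 (SE), adjusted p = 1.81e-05 and was the clearer of 2 members that fell among 21 genes of the unfolded protein response, beside Edem1 (-0.87), which was lost without mouse 49. Of 16 heat shock genes 2 fell and 1 rose (1 and 0 without mouse 49). The co-chaperone Dnajb1 was at 7.19, 0, 3.08, 11.6 and 3.42 CPM in the controls and 0 CPM in all 5 exposed crypts. Hspa1b, an inducible member of the Hsp70 family with a near-identical neighbour, was at 13.8, 14.6, 14.8, 4.32 and 31.1 CPM in the controls and 5.32, 0, 4.10, 0.738 and 2.75 CPM in the exposed crypts (log2 fold change -2.39 ± 0.76 (SE), adjusted p = 0.032), while Hspa4 rose by 0.52 (adjusted p = 0.0969), a rise that did not hold without mouse 49.

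The largest gains of all came from a small set of trypsinogen-like genes on chromosome 6, which encode relatives of the pancreatic protease trypsin. Gm2663 (GRCm38, chromosome 6, 40995830 to 40999479, minus strand) had no read in any control crypt and stood at 1386, 2332, 1040.4, 145 and 587 CPM in the exposed crypts, which is at least 1374-fold higher when the controls are set at a floor of 3 counts per library. Gm5771 (41392356 to 41397230, plus strand) was at 5.39, 5.87, 8.00, 3.66 and 0 CPM in the controls and 2846, 3028, 2085, 195 and 1032 CPM in the exposed crypts, with a log2 fold change of 8.55 ± 0.85 (SE), adjusted p = 4.82e-15 (8.56 without mouse 49). 1810009J06Rik (40964754 to 40968435, plus strand) was at 2.10, 0, 2.15, 0 and 0 CPM in the controls and 129.9, 263, 117, 20.9 and 64.7 CPM in the exposed crypts (6.55 ± 0.80 (SE), adjusted p = 2.4e-12). In all 3 genes each exposed crypt was above each control crypt, and mouse 529 was the lowest of the exposed crypts. These genes belong to a family of similar sequences, so that the member behind a probe is uncertain.

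Other exocrine pancreas transcripts were abundant in many libraries of both groups. The pancreatic acinar list summed to 7648, 8327, 45640, 17111 and 23 CPM in the control crypts and to 38255, 56343, 60064, 3769 and 16899 CPM in the exposed crypts. Its median log2 fold change was 0.98, with 21 of 21 members positive with and without mouse 49. The groups overlapped, and of 21 acinar markers, each by its probe with the most reads, 0 passed by edgeR or DESeq2, with 1 at an unadjusted p below 0.05 and 1 called in a fit of these 10 libraries alone. A second probe of the trypsinogen Prss1 rose as the trypsinogen-like genes did, from 0 to 29.2 CPM in the controls to 3477, 3594, 2029, 154 and 1012 CPM in the exposed crypts (log2 fold change 7.53 ± 1.02 (SE), adjusted p = 7.99e-09), while its probe with the most reads was at 226, 305, 1467, 545 and 0.190 CPM in the controls and 3721, 4801, 4568, 286 and 1394 CPM in the exposed crypts and missed the threshold (adjusted p = 0.41). For Cpa1 and Prss2, chosen after their values were seen, the values were as follows. Cpa1, a carboxypeptidase, was at 1115, 1145, 6188, 2332 and 1.14 CPM in the controls and 4412, 7393, 7396, 528 and 1878 CPM in the exposed crypts (adjusted p = 0.82), and Prss2, another trypsinogen, at 107, 103, 651, 239 and 2.66 and 392, 512, 745, 52.9 and 224 CPM. The 5 control crypts had 0 CPM of Gm2663 beside 1.14 to 6188 CPM of Cpa1. Within the exposed crypts, mouse 529 was lowest and mouse 530 next lowest for Cpa1 and for Gm2663 and Gm5771 alike. The part of pancreatic tissue in the rise of the trypsinogen-like genes was not tested beyond these values.

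The promoters of 2 of these genes and of Prss1 are shown because those of Gm5771 and Prss1 are alike over a long stretch and that of Gm2663 is not. RefSeq (GRCm38.p6) places the 250 bases before the start at chr6:40999480-40999729 on the minus strand for Gm2663, at chr6:41392106-41392355 on the plus strand for Gm5771 and at chr6:41458680-41458929 on the plus strand for Prss1, and the capitals mark TATAAA.
Gm2663: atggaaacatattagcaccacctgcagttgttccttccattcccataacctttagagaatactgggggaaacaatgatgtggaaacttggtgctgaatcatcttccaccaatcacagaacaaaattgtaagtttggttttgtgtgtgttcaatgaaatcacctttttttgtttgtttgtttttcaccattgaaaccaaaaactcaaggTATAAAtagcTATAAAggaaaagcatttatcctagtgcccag
Gm5771: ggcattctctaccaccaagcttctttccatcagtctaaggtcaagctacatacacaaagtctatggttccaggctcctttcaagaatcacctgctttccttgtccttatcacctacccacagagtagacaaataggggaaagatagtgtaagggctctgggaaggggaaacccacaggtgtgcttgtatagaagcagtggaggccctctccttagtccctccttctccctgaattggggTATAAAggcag
Prss1: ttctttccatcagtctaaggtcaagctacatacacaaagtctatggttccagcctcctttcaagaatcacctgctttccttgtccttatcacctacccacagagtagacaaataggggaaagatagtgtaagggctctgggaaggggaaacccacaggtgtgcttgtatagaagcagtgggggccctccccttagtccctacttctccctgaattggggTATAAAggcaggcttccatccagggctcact
The windows of Gm5771 and Prss1 shared an unbroken identical run of 127 bases, and those of Gm2663 and Gm5771 one of 8 bases. TATAAA was found on either strand in the windows of all 4 family members with a promoter in the table, Prss2 included, and in 14.2% of all promoters.

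**Figure D3:**
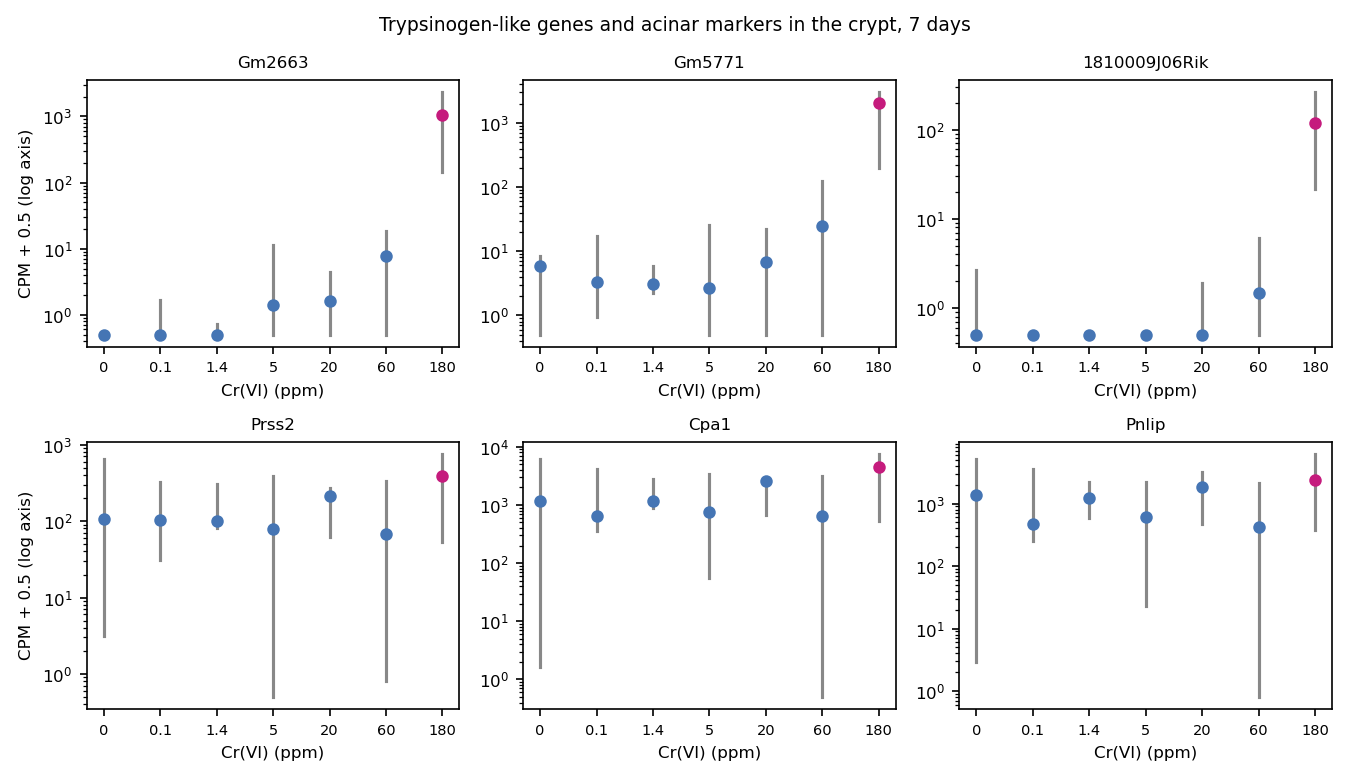
Level of 3 trypsinogen-like genes (upper row) and 3 exocrine pancreas genes (lower row) in the crypt after 7 days against the concentration of Cr(VI) (evenly spaced categories); points are group medians of CPM + 0.5 on a log axis and lines run from the lowest to the highest library (5 libraries a group, 6 at 0.1 ppm). Gm2663 had a median of 1040.4 CPM at 180 ppm and 7.28 CPM at 60 ppm, while the ranges of Prss2, Cpa1 and Pnlip overlapped at all concentrations.

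Levels at the lower concentrations are given for a few of these genes. The contrasts of 60 and 20 ppm with 0 ppm use the same 5 control libraries as the 180 ppm contrast, so that they are given side by side only. At 60 ppm 490 genes passed (2.36% with 1 probe a gene, 0.858% higher and 1.5% lower, and 199 genes without mouse 49), and at 20 ppm 59 (0.274%, 0.0316% higher and 0.242% lower, and 10 genes without mouse 49). The median level of Pck1 over the groups of 0, 0.1, 1.4, 5, 20, 60 and 180 ppm was 267, 312, 186, 106, 22.4, 20.3 and 2.46 CPM, and that of Cyp2b10 was 213, 317, 383, 151, 54.0, 6.05 and 0.246 CPM. Both genes thus had the highest concentration as their lowest group, although the libraries of 60 and 180 ppm overlapped. Over 20, 60 and 180 ppm Mboat1 had medians of 7.49, 29.9 and 31.0 CPM, Mcpt1 of 23.2, 259 and 207 CPM, and Acat2 of 43.1, 53.2 and 55.8 CPM, with overlapping libraries at the 2 highest concentrations. The list counts at 60 ppm were 7 of 21 villus enterocyte markers lower and 9 of 23 cholesterol synthesis genes higher (6 and 6 without mouse 49).

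**Figure D4:**
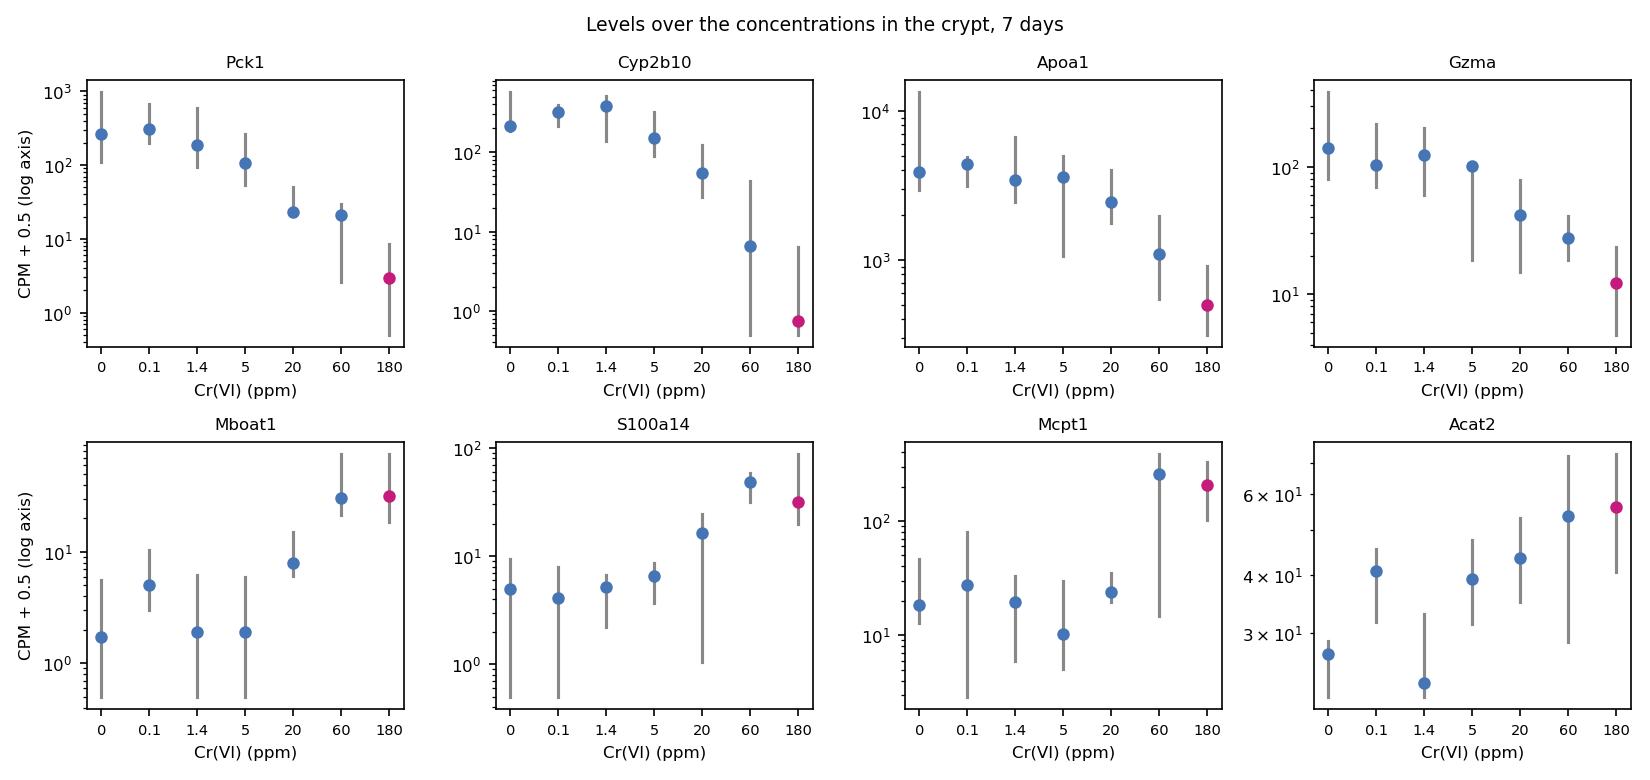
Level of 4 genes that fell (upper row) and 4 that rose (lower row) in the crypt after 7 days against the concentration of Cr(VI) (evenly spaced categories); points are group medians of CPM + 0.5 on a log axis and lines run from the lowest to the highest library (5 libraries a group, 6 at 0.1 ppm). Pck1, Cyp2b10, Apoa1 and Gzma had their lowest median at 180 ppm, while Mboat1, S100a14, Mcpt1 and Acat2 had overlapping libraries at 60 and 180 ppm.

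The direct contrast of 180 with 60 ppm, which has no control library in it, called 25 genes (0.111% with 1 probe a gene, 0.0211% higher and 0.0895% lower), 5 higher and 20 lower at 180 ppm. The higher genes included the trypsinogen-like Gm2663, Gm5771 and 1810009J06Rik, with log2 fold changes of 6.91, 5.45 and 5.56, and the second probe of Prss1 (5.74, adjusted p = 8.95e-06). The pancreatic acinar list had a median log2 fold change of 1.95 in this contrast, with 20 of 21 members positive, and summed to 27882, 18.0, 2285, 5153 and 7143 CPM in the 60 ppm crypts. Its part in the result was not tested. Gm2663 was at 18.2, 0, 0.233, 7.28 and 14.6 CPM in the 60 ppm crypts, all below the 145 CPM of the lowest 180 ppm crypt. The lower genes with the smallest adjusted p rested on single libraries of the 60 ppm group. Fabp6, the bile acid binding protein of the ileum, was at 2.42, 6779, 3.49, 0 and 0.224 CPM at 60 ppm, and the mucin Muc6 at 3138 CPM in 1 library and 0 to 14 CPM in the other 4, so that 1 library carried nearly all of each. A fit of the libraries of this contrast alone in edgeR called 4 genes, all of them higher, so that the lower calls were lost.

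After 90 days at 180 ppm, in other mice with their own controls, 1489 genes passed in the crypt (7.07% with 1 probe a gene, 4.34% higher and 2.73% lower). Of the 957 genes of day 8, 417 passed there as well, which is 43.6% of the genes after 7 days and 28% of those after 90 days, 136 of them higher in both, 278 lower in both and 3 opposite. Without mouse 49 the shared genes were 262, or 53.7% and 17.6% of each list. Pck1 (-5.02), Gzma (-2.86), Mboat1 (4.63) and Mcpt1 (4.20) had log2 fold changes at 90 days of the same sign as at 7 days. Cholesterol synthesis had 13 of 23 genes higher at 90 days, ribosome biogenesis 16 of 34 and the villus enterocyte list 9 of 21 lower.

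Tested directly, the effect of 180 ppm differed between 90 and 7 days for 29 genes (0.132% with 1 probe a gene, 0.121% with the higher and 0.0105% with the lower effect at 90 days), of which 26 had the higher effect at 90 days, and for 10 genes without the control crypt of mouse 49. Heat shock genes were among them. Hspa8, the constitutive Hsp70, changed by -0.52 at 7 days (adjusted p = 0.275) and 1.39 at 90 days, a difference of 1.92 ± 0.33 (SE, adjusted p = 0.000587), and Hspa1b by -2.39 and 2.42, a difference of 4.81 ± 0.92 (adjusted p = 0.00112). Of the 16 heat shock genes 10 rose and 0 fell at 90 days. Herpud1, lower by 7 days, changed by 0.06 at 90 days, a difference of 1.72 (adjusted p = 0.0567), and the antibody light chain segment Igkv8-30, one of many near-identical genes, changed by -2.43 and 0.56, a difference of 2.99. The trypsinogen-like gene Gm5771 had the opposite course, with 0.77 at 90 days and a difference of -7.78 (adjusted p = 0.0177), and so had the second probe of Prss1 (difference -8.07, adjusted p = 0.000325). The pancreatic acinar list had a median difference of -2.82, with 1 of 21 members positive. It summed to 38.6, 175193, 13.5, 26244 and 2860 CPM in the control crypts of 90 days, where mouse 5 stood far above the others and had 21% of its reads in 10 probes, and its part in the result was not tested. Gm2663 was at 2.69, 17.9, 4.13, 0 and 0.963 CPM in the crypts exposed for 90 days, beside 4426, 961, 3143, 0.635 and 875 CPM of Cpa1.

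In the villus of mice from the same 2 groups, 1389 genes passed at 180 ppm (6.49% with 1 probe a gene, 2.82% higher and 3.67% lower). Because both compartments come from the same animals, the crypt and villus values are given side by side. Pck1 changed by -6.68 in the crypt and -5.85 in the villus, Apoa1 by -3.32 and -1.93, Gzma by -4.02 and -3.04, and Gm5771 by 8.55 and 5.55. The lists differed in their counts, with 10 of 21 villus enterocyte markers lower and 45 of 79 cytosolic ribosomal proteins higher in the villus, where the Paneth cell list had 5 of 12 members lower. Without the control crypt of mouse 49 and the control villus of mouse 48, which held crypt markers, these counts were 10, 59 and 2.

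The difference between the crypt and villus effects passed for 1 gene by edgeR (0.00526%), with 2227 probes at an unadjusted p below 0.05, for 56 genes with the mouse as a block and for 96 by DESeq2. The 1 gene was Plin2, a coat protein of lipid droplets. It was at 152, 225, 183, 289 and 269 CPM in the control crypts and 179.8, 104, 115, 122 and 162 CPM in the exposed crypts, so that the groups overlapped, and at a median of 184 CPM in the control villi (highest value 392) and at 385 to 563 CPM in the exposed villi. Its log2 fold change was -0.71 in the crypt and 1.18 in the villus, a difference of -1.89 ± 0.35 (SE, adjusted p = 0.0102). A pass in the crypt alone or in the villus alone does not by itself show a difference between the compartments. The count of genes that differed in the direct test depended on the fit.

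**Figure D5:**
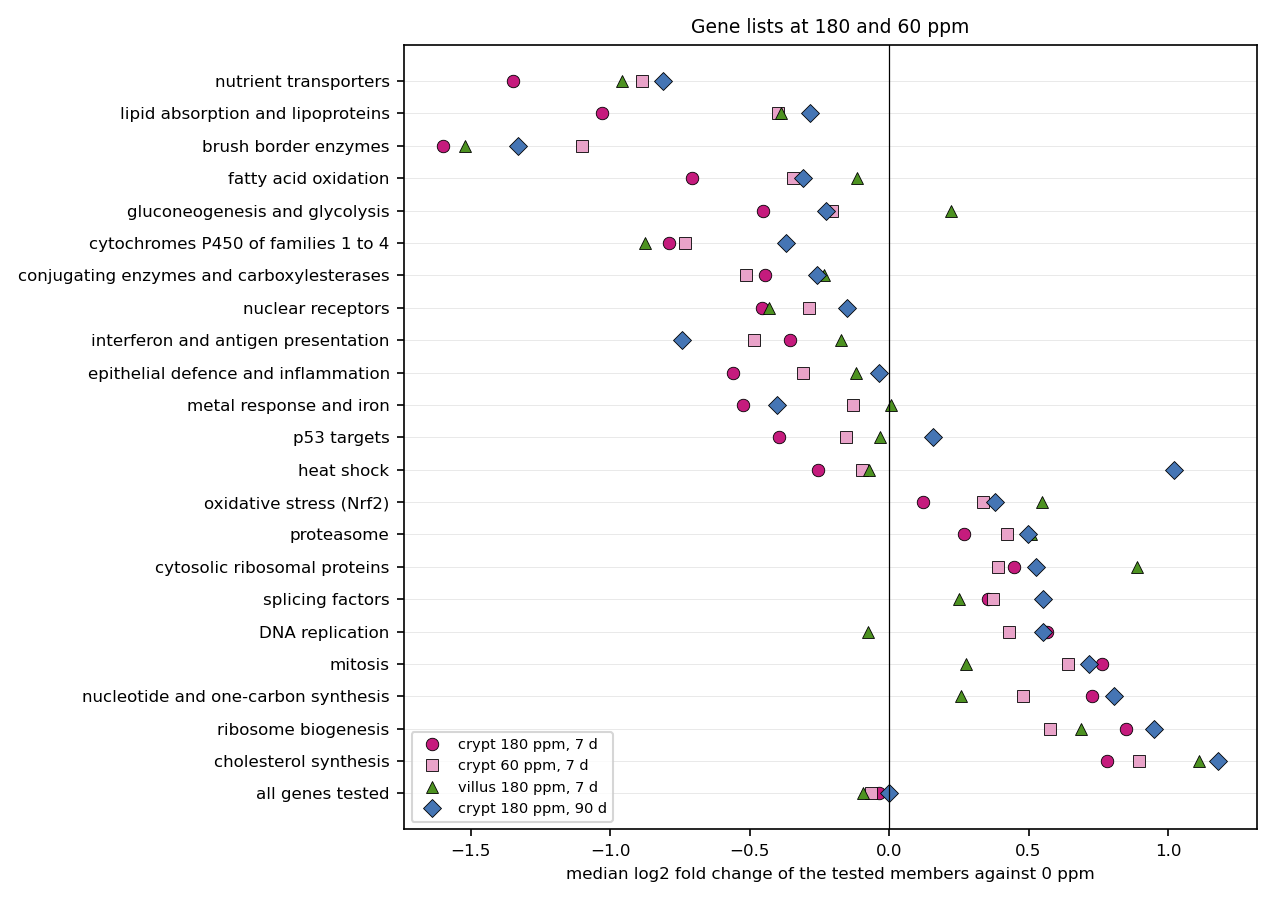
Median log2 fold change of the tested members of 22 gene lists and of all genes tested (vertical axis) against 0 ppm, for the crypt at 180 ppm (magenta circles) and 60 ppm (pink squares) after 7 days, the villus at 180 ppm after 7 days (green triangles) and the crypt at 180 ppm after 90 days (blue diamonds). The heat shock list had a median of -0.26 in the crypt after 7 days and 1.02 after 90 days, and all genes tested had medians near 0 in each contrast; contrasts of 7 days in the crypt share their control libraries.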

How the data were processed

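The values analysed were the raw counts deposited by the authors, the number of sequenced reads per TempO-Seq probe, with replicates not pooled and libraries of low depth or diversity already removed by them. The submitters' processing notes name bcl2fastq 2.17.1.14 and Bowtie, and the genome build was not given in the sources used here. Sequencing depth limits what was detectable in low genes, and PCR reads are not independent molecules. All libraries, in 28 groups, were fitted together with edgeR 4.0.16 (R 4.3.3) by the quasi-likelihood F-test on the counts after TMM scaling and filterByExpr, two-sided, with Benjamini-Hochberg adjustment over all probes tested and a threshold of 0.1, the threshold of the study. A gene is the probe name without its number, represented in lists and levels by the probe with the highest total count, and CPM are TMM-scaled. Fold changes used a prior count of 2. The fitting code was tried on simulated counts of the crypt libraries of 7 days alone, with the same spread for all probes. That setting lacks the villus libraries, the pairing by mouse and the control crypt that went against its label. Replicate libraries differed from each other by more than sampling noise.

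Named genes were the 10 with the smallest adjusted p in each direction without overlap of the groups, up to 2 called members a list in each direction (the member with the smallest p where none was called), all villus enterocyte, stem cell and Paneth cell markers, the 3 leading genes a direction of each interaction and of 180 against 60 ppm, and genes the study names, some of which are not reported here. The members, lists and tests were chosen with earlier results of these data known. Crypt and villus of 1 mouse were paired by design (9 mice with both, correlation of their deviations from the group means 0.00367 to 0.354, 6 of 9 highest with their own mouse), so that the mouse served as a block in an alternative fit of the difference between compartments. Other alternatives were DESeq2 1.42.0, its size factors, other filters, covariates and sample sets, thinned counts, summed probes and each library left out. Promoters and motifs came from RefSeq (GRCm38.p6), gene positions from GENCODE (GRCm38). Figures were drawn with matplotlib 3.10.9.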

Additional observations from a re-analysis of the deposited data

Results flagged for a closer look

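Dixon's ratio, the gap of the most extreme library to its neighbour over the range of its group, was computed for 238 groups of 5 libraries, and 19 exceeded the critical value of 0.71, where chance gives about 1 in 20. The control crypt of mouse 49 accounted for 9 of them, as the highest control for Apoc3 (ratio 0.89), Krt20 (0.715), Slc5a1 (0.718), Pck1 (0.722), Ephx2 (0.755), Apoc2 (0.741), Treh (0.899), Cyp3a13 (0.798) and the summed villus enterocyte markers (0.712). Without this library the log2 fold changes of these genes kept their sign, with -1.72 for Treh in place of -2.32 and -5.96 for Pck1 in place of -6.68.

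The control crypt of mouse 46 stood above the other controls for Bcl2l15 (0.733), Gclc (0.723), the mucin Muc6 (0.973) and the summed Brunner gland markers (0.973), which are nearly all Muc6 at 68.0, 1.82, 0, 0 and 0 CPM. Among the exposed crypts mouse 528 was lowest for Lgr5 (0.764) and highest for Gsta3 (0.744) and the summed fibroblast markers (0.783), mouse 529 lowest for Mmp7 (0.805) and highest for Gzmb (0.823), and mouse 530 highest for Hspa8 (0.777).

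Effects of 180 ppm that differed in a direct test were those of Plin2 between crypt and villus (-1.89 on the log2 scale, the 1 gene called), and between 90 and 7 days, among 29 genes called, those of Gm5771 (-7.78), Herpud1 (1.72), Hspa1b (4.81), Hspa8 (1.92), Igkv8-30 (2.99) and Lmo3 (-4.73). Lmo3, a transcriptional cofactor, had no read in the 5 control crypts of 7 days and was at 0, 2.73, 1.58, 1.72 and 3.44 CPM in the exposed crypts.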

How the results depend on the processing

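The count of genes called in the crypt at 180 ppm (957) ranged from 488 to 1010 when each library was left out in turn, and the lowest came without the control crypt of mouse 49 (687 to 1010 for the other libraries). It was 495 without that library and the control villus of mouse 48, an alternative added after seeing the data, and between 667 and 1221 under the other settings. The share of called probes that were higher (25.5%) ranged from 20.5% to 34.7% over the libraries left out, lowest without mouse 49 and highest without the control of mouse 50. It was 19.5% at an adjusted p below 0.05, 37.5% with DESeq2 size factors, 33.6% with a mean count of at least 10, 15.5% with the legacy edgeR fit, 33.9% with total count as a covariate, 32.4% with thinned counts, 37.6% with summed probes, 34.4% with the 10 libraries alone, 40.9% with the crypts of 7 days alone, 36% by DESeq2 and 20.7% without both doubtful libraries.

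The 29 genes whose effect differed between 90 and 7 days ranged from 10 to 32 over the libraries left out, with 10 without the control crypt of mouse 46 or 49, 11, 16, 12 and 14 without the exposed crypts of mice 527, 528, 529 and 530, and 14 and 19 without the controls of mice 47 and 48. They were 12 at an adjusted p below 0.05, 9 with DESeq2 size factors, 17 without a filter, 13 with the total count as a covariate, 18 with thinned counts, 12 with the libraries of the contrast alone, 46 by DESeq2 and 11 without both doubtful libraries. The 25 genes of 180 against 60 ppm ranged from 12 to 27 over the libraries left out, lowest without the exposed crypt of mouse 527, with 13, 15 and 15 without mice 528, 529 and 530. They were 15 at 0.05, 11 with the legacy fit, 14 with thinned counts, 16 with summed probes, 4 with the contrast alone, all higher, and 48 by DESeq2.

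The 1 gene that differed between crypt and villus ranged from 1 to 15 over the libraries left out, highest without the exposed crypt of mouse 526 and 8 without the control of mouse 50. With the mouse as a replicate block, which pairs both compartments, 56 genes passed (30 with the higher effect in the crypt and 26 with the lower). It was 18 with a mean count of at least 10, 3 with the legacy fit, 4 with thinned counts, 2 with summed probes, 2 without both doubtful libraries, 96 by DESeq2 and 0 with the 4 groups alone in edgeR, where 1067 probes had an unadjusted p below 0.05. The cause of these shifts was not tested. Of the 145 named genes 90 passed, all 90 kept their sign under every alternative in which they were tested (22 for all but Ada, Dnajb1 and Slx4, with 20 or 21) and 59 passed under all of them. No named gene that passed reversed. For crypt against villus in the control mice (164 genes) the block gave 313 genes, and the 2 groups alone without it 0 in edgeR, with 1346 probes at an unadjusted p below 0.05. The block applied to no contrast between concentrations or times, in which each mouse gave 1 library. At 2341950 to 4759008 reads a library, genes of few CPM, such as Lgr5, allow no finer statement.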

Other observations

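In the villus contrast of 180 with 0 ppm, 1389 genes passed with all libraries and 1712 without the 2 control libraries whose markers went against their labels, 850 higher and 865 lower, with some genes counted in both directions through different probes. The crypt held 1041 genes higher and 595 lower than the villus in the control mice without these libraries.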
